A study of Mus musculus with 3 samples.

Results

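A set of 8 genes is described here, out of 32285 in the matrices: 6 of the S100 family (S100a8, S100a9, S100a4, S100a6, S100a10 and S100a11) and 2 annexins (Anxa1 and Anxa2). They were chosen by name, and their levels were read in each class and subset of aortic immune cells in 3 droplet single-cell RNA-seq libraries. All mice carried ApoE-/- on C57BL/6J, a genotype used as a model of atherosclerosis, per the labels. The Ctrl library came from control mice, the HHcy library from mice that drank water holding 1.8 g/L of homocysteine (Hcy) over 4 weeks, and the WD library from mice fed a western diet for as long. Live nucleated CD45+ cells were sorted from whole aortas with their adventitia. The labels give neither the age, the sex nor the number of mice per library.

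S100 proteins are small calcium-binding proteins with EF-hand folds that mostly act as dimers. S100a8 and S100a9 pair to form calprotectin, an abundant protein of the neutrophil cytosol that binds metals and, once released, signals through Tlr4 and Ager. S100a4 and S100a6 are widespread in moving and activated cells, and S100a4 binds the myosin heavy chain Myh9. S100a10 pairs with annexin A2 at the plasma membrane and S100a11 pairs with annexin A1. Annexins bind acidic phospholipids when calcium rises, and annexin A1, once outside the cell, acts on the formyl peptide receptors Fpr1 and Fpr2 and restrains neutrophil entry.

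The 6 S100 genes lie on mouse chromosome 3 in 2 neighbourhoods (RefSeq annotation of GRCm38.p6). Among the members, S100a4 (chr3:90603770-90606045), S100a6 (chr3:90612894-90614414), S100a8 (chr3:90669071-90670034) and S100a9 (chr3:90692630-90695721) follow each other. There are 6848 bases between S100a4 and S100a6, 54656 between S100a6 and S100a8 and 22595 between S100a8 and S100a9. Genes outside the set that may lie in these gaps were not looked up. S100a11 (chr3:93520496-93526288) and S100a10 (chr3:93555117-93564645) lie 2824774 bases further on and 28828 bases apart. Anxa1 is on chromosome 19 (chr19:20373434-20390671) and Anxa2 on chromosome 9 (chr9:69453683-69491792). All values below are counts over the whole gene from transcript ends, so no exon is set apart.

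The 250 bases before the RefSeq start are printed for the 4 genes of the tight cluster, because these members differed in where they were read: S100a8 and S100a9 almost only in neutrophil-like cells, S100a4 least of all there, and S100a6 in every class. Each runs 5′ to 3′ on the gene's own strand, and capitals mark motif letters. The windows are chr3:90668821-90669070 (S100a8, plus strand), chr3:90695722-90695971 (S100a9, minus strand), chr3:90603520-90603769 (S100a4, plus strand) and chr3:90612644-90612893 (S100a6, plus strand).
S100a8: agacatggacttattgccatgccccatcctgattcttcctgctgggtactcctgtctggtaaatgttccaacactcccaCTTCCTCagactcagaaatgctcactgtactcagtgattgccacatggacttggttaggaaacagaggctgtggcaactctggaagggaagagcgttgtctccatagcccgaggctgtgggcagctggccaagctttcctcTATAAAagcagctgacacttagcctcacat
S100a9: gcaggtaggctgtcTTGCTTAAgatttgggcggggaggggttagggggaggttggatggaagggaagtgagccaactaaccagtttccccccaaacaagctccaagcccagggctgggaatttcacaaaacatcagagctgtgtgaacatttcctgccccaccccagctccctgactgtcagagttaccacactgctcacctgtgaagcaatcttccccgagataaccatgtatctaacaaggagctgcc
S100a4: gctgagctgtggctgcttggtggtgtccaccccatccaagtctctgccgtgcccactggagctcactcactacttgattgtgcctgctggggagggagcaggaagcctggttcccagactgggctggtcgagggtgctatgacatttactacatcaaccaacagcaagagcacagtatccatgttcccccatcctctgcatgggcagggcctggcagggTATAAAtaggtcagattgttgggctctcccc
S100a6: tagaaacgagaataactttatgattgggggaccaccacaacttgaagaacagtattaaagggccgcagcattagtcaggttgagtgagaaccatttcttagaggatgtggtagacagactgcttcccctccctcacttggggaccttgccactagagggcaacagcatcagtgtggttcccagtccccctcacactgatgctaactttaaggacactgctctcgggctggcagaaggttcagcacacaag

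The motifs searched on both strands were TATAAA (the core promoter box that binds TBP), TTGCNNAA (of the C/EBP type), GAGGAAG (of the PU.1 type) and TGANTCA (of the AP-1 type). They occur, in that order, in 12.4%, 9.56%, 10.6% and 6.75% of 32851 such windows of the RefSeq genes. No 2 matches overlapped in these sequences. S100a8 holds TATAAA at bases 30 to 25 before the start, and GAGGAAG on the other strand (CTTCCTC as printed) at bases 171 to 165. S100a9 holds TTGCNNAA at bases 236 to 229, and its TATAAA begins at base 1 after the annotated start, outside the window. S100a4 holds TATAAA at bases 31 to 26, and none of the 4 motifs is in the S100a6 window. Of the other members, Anxa1 holds TATAAA and TTGCNNAA, Anxa2 TATAAA and TGANTCA, and S100a11 TGANTCA at 2 places. A match is a description of letters only. The sequences come from RefSeq, where 7 of the 8 members matched, all but S100a10.

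Of 7512, 9753 and 8557 barcodes in the Ctrl, HHcy and WD matrices, 5445, 6460 and 5364 were used. They held a median of 7655, 6785.5 and 8217.5 unique molecular identifiers (UMIs, each counting 1 captured transcript) per cell. Levels are given as CPM: UMIs were summed over a class in a library and scaled to the same total for every sum. Apoe, the gene the labels give as disrupted, stood at 16.3 CPM over all Ctrl barcodes, 374 in HHcy and 19.3 in WD. The HHcy matrix therefore goes against its genotype label, and it is called the library labelled HHcy below. Doublets marked by lineage markers made up 9.82% of the Ctrl barcodes that passed the limits, 20.8% of those labelled HHcy and 20.1% of those of WD. Between 22 and 25 used barcodes per library also occurred among those of another. Each group is 1 library, so no test between groups was possible, and all intervals are 95% intervals that cover counting error only.

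Classes were drawn without any S100 or annexin gene and named from marker genes. The cells used included 198, 421 and 262 neutrophil-like cells, 1895, 1134 and 2518 macrophage/monocyte-like cells, 440, 280 and 383 conventional dendritic-like cells, 2181, 3640 and 1215 B cell-like cells and 140, 201 and 142 T cell-like cells, in the order Ctrl, library labelled HHcy, WD, which is kept below. Smaller classes were ILC2-like cells (27, 40 and 37) and fibroblast-like cells (30, 90 and 172). Neutrophil-like cells had 15, 15 and 14 of 16 neutrophil markers in at least 25% of cells. Fibroblast-like cells held Ptprc, which encodes CD45, at 54.6, 28.5 and 29.9 CPM, against at least 586 CPM in the 5 large classes, so they do not match the CD45+ sort.

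S100a8 and S100a9, the calprotectin subunits, were read almost entirely in neutrophil-like cells. S100a8 stood there at 93262, 93770.1 and 80083 CPM, a mean of 89038 ± 7760 (SD over the 3 libraries, which are different treatments and not replicates). S100a9 stood there at 107551, 116638 and 97946 CPM, a mean of 107378 ± 9347. By UMI count they ranked 2 and 1 of all genes in that class in each library, and together they took 20.1%, 21.04% and 17.8% of its UMIs. Of all S100a8 UMIs in cells used, 97.9%, 97.0% and 96.6% lay in neutrophil-like cells, which were 3.64%, 6.52% and 4.88% of the cells. Only classes with at least 20 cells in each library are ordered here and below, and no other of them came near. The next, conventional dendritic-like cells, held S100a8 at 88.2, 530.1 and 129 CPM, and the library ranges did not overlap. Below that, the ranges of all neighbours in the order overlapped, down to B cell-like cells at 25.1, 75.7 and 41.1 CPM. S100a9 had the same highest and lowest class. Granulocyte progenitor-like cells, which reached 20 cells in Ctrl and WD only, were outside the order. Their S100a8 was 0.131% and 0.182% of the neutrophil-like level, against 0.0946% and 0.161% in conventional dendritic-like cells of these libraries. With doublet limits lowered by 2 markers, the lowest mean of S100a8 was instead in conventional dendritic-like cells, at 36.2 ± 21.7 CPM against 48.3 ± 27.4 CPM in B cell-like cells, and S100a9 moved with it.

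S100a6, S100a11 and Anxa1 also had their highest level in neutrophil-like cells, by smaller margins. S100a6 stood there at 4243, 7029 and 5961 CPM (mean 5744 ± 1405), above fibroblast-like cells at 3332, 3480 and 1977 CPM (mean 2929.8 ± 828), without overlap. Its lowest mean was in macrophage/monocyte-like cells, at 1204, 1205 and 1141 CPM, within the range of the other lymphoid and myeloid classes. So S100a6 was present in every class, and from fibroblast-like cells down no neighbours were apart.

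S100a11, the partner of annexin A1, stood at 3688, 5071 and 5135 CPM in neutrophil-like cells (mean 4632 ± 818). Conventional dendritic-like cells followed at 1282, 1090 and 1246 CPM (mean 1206 ± 102), then fibroblast-like cells at a mean of 779 ± 164. Both steps were without overlap. T cell-like cells (mean 586 ± 123), macrophage/monocyte-like cells (397 ± 12.8) and B cell-like cells (256 ± 46.1) were apart from each other in that order.

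Anxa1 had more steps without overlap between neighbouring classes than any other of the 8 genes. It stood at 1109.9, 1053 and 944 CPM in neutrophil-like cells (mean 1036 ± 84.2) and at 223, 578 and 298 CPM in fibroblast-like cells. Conventional dendritic-like cells (mean 195.3 ± 15.0) and macrophage/monocyte-like cells (189 ± 16.8) overlapped. T cell-like cells held 33.8, 17.2 and 13.2 CPM and B cell-like cells 7.23, 7.56 and 9.27 CPM. Every other neighbouring pair in the order was apart, ILC2-like cells (mean 94.5 ± 34.3) included.

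S100a10 and S100a4 had the opposite placement, with the lowest level in neutrophil-like cells. S100a10, the light chain that pairs with annexin A2, stood there at 31.7, 37.9 and 41.7 CPM (mean 37.1 ± 5.06), below every other class without overlap. T cell-like cells held 1052, 1169 and 1620 CPM and ILC2-like cells 1154, 1451 and 1213 CPM, and these overlapped. Between them and neutrophils came fibroblast-like (mean 966 ± 349), conventional dendritic-like (645 ± 48.6), macrophage/monocyte-like (599 ± 64.9) and B cell-like cells (473 ± 105), overlapping with each other in turn.

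S100a4 stood at 1747, 2297 and 1863 CPM in ILC2-like cells and at 1488, 1610.1 and 2699 CPM in conventional dendritic-like cells, which overlapped. Macrophage/monocyte-like cells held 1150.1, 1259.7 and 1115 CPM and T cell-like cells 915, 916 and 1333 CPM. These 4 classes were above fibroblast-like cells (mean 287 ± 96.4), B cell-like cells (242 ± 99.6) and neutrophil-like cells (136 ± 26.3). The last 3 overlapped with their neighbours.

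Anxa2, whose product tethers S100a10, did not share its order. It stood at 594, 555 and 740.3 CPM in conventional dendritic-like cells and at 419, 769 and 663 CPM in neutrophil-like cells. These ranges overlapped, and fibroblast-like cells (mean 463 ± 145) overlapped with neutrophil-like cells above and with macrophage/monocyte-like cells (349.5 ± 16.4) below. T cell-like cells (mean 248 ± 51.8) and B cell-like cells (80.4 ± 33.4) were lower and apart, and ILC2-like cells (78.02 ± 42.1) overlapped with the latter. Neutrophil-like cells thus had Anxa2 near the top of its order and S100a10 at the bottom. With the library labelled HHcy left out, all 8 genes kept their highest and their lowest of the 5 large classes.

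**Figure D1:**
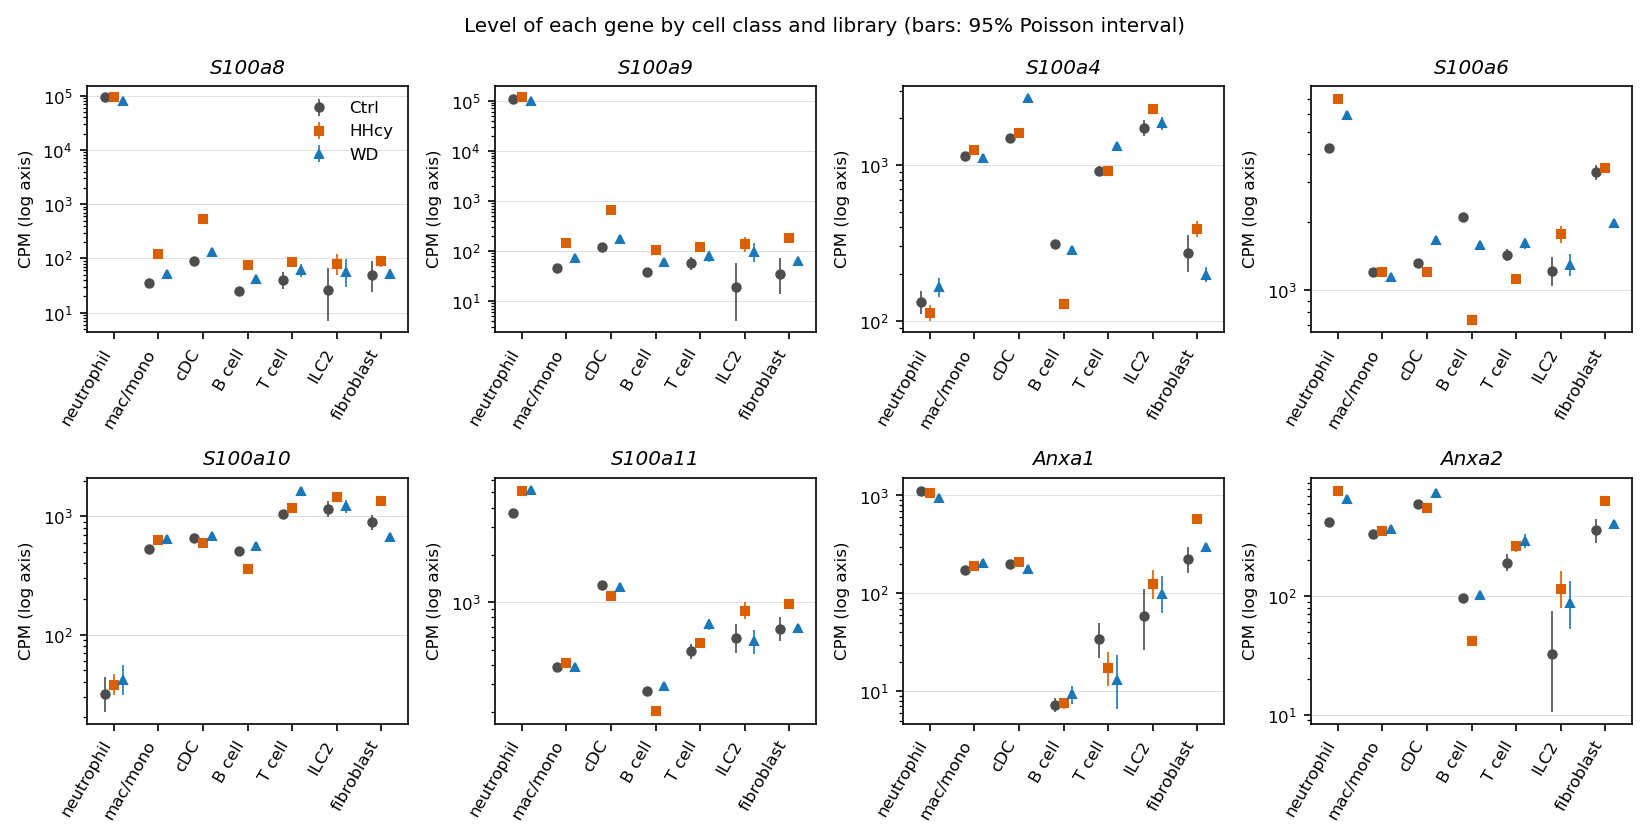
CPM (log axis) of the 8 genes in 7 classes, with 1 point per library and bars for 95% Poisson intervals. S100a8 and S100a9 sit between 80083 and 116638 CPM in neutrophil-like cells and at or under 646 CPM elsewhere, while S100a10 and S100a4 have their lowest points in neutrophil-like cells.

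Across 18 class-by-library sums of at least 50 cells in 7 classes, the genes most like each member were ranked by Pearson r of log2(CPM + 10) among 5856 genes. The points share libraries, and neutrophil-like cells lie far from the rest, so r is a description only. S100a8 was most like S100a9 (r = 0.999), Retnlg (0.997), Ngp (0.990), Cstdc4 (0.989) and Stfa2l1 (0.988), of which Retnlg, Ngp and Stfa2l1 are among the neutrophil markers used. S100a9 had the same genes in its list. S100a11 was most like Antxr2 (0.945), Pdcd6, Actn1, Il1r2 and R3hdm4, and Anxa1 like Jdp2 (0.977), Id1 (0.972), Ifitm2, Flot1 and Cpne3. S100a4 was most like Atp5l (0.944), Dyrk2, Commd8, Rab1b and Gnb1, S100a6 like Pbxip1 (0.922), Rybp, Msl1, Prkd3 and Tax1bp1, S100a10 like Ccdc59 (0.963), Polr2g, Cacybp, Utp11 and Fkbp1a, and Anxa2 like Fam129a (0.930), Zyx, Tnfrsf1a, Flot1 and Phactr2. Among members, S100a11 and Anxa1 had r = 0.827, Anxa1 and Anxa2 0.850, S100a10 and Anxa2 -0.14, and S100a10 and S100a8 -0.88. S100a11 had r = 0.851 with S100a8 and 0.846 with S100a9, beside the 0.827 with its partner Anxa1.

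Outside neutrophil-like cells, S100a8 and S100a9 were read as possible free RNA, since droplets also take up RNA from the suspension. Over all barcodes, S100a8 stood at 2091, 4526 and 2412 CPM and S100a9 at 2407, 5625 and 2974 CPM, with the library labelled HHcy the highest. B cells are not known as a source of calprotectin. S100a8 in B cell-like cells was 0.0269%, 0.0807% and 0.0514% of the neutrophil-like level of the same library, and S100a9 0.0354%, 0.0907% and 0.0608%. The neutrophil markers had a median of 0.0559%, 0.118% and 0.130% by the same measure (10, 16 and 11 markers). Their summed level was 57774, 52915 and 52081.5 CPM in neutrophil-like cells and 42.8, 70.9 and 54.4 CPM in B cell-like cells, where 0 of 16 markers were at 0. So both calprotectin genes lay under the median share that other neutrophil genes had in B cell-like cells.

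The level was low in most cells that had any. S100a8 had 0 UMIs in 81.9%, 56.8% and 73.8% of B cell-like cells, and 10 or more in 2, 0 and 1 of them. Thinned to 1000 UMIs per cell, the share of B cell-like cells with an S100a8 UMI was 2.44%, 7.98% and 5.04%, against 96.9%, 96.1% and 97.99% of neutrophil-like cells. T cell-like cells had 4.51%, 12.1% and 11.3%, and macrophage/monocyte-like cells 4.07%, 10.9% and 6.24%. The unthinned shares in B cell-like cells were 18.1%, 43.2% and 26.2%. In each of these classes the library labelled HHcy was the highest, as it was over all barcodes. In T cell-like cells S100a8 stood at 0.0432%, 0.0915% and 0.0761% of the neutrophil-like level and in macrophage/monocyte-like cells at 0.0384%, 0.130% and 0.0632%, where the marker medians were 0.0935%, 0.402% and 0.116%. The source of these low levels was not tested.

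The ratio of the calprotectin genes differed between classes. Neutrophil-like cells held 1.15, 1.24 and 1.22 S100a9 UMIs per S100a8 UMI. B cell-like cells held 1.51 (interval 1.35 to 1.70), 1.40 (1.32 to 1.48) and 1.45 (1.27 to 1.65). T cell-like cells held 1.42, 1.41 and 1.29, with wide intervals that overlapped those of B cell-like cells. Resident-like macrophages held 1.55, 1.41 and 1.55 and foamy macrophage-like cells 1.51, 1.58 and 1.42, above neutrophil-like cells beyond counting error in Ctrl and WD. Neutrophil subsets varied too, at 1.15 in immature and 1.32 (1.31 to 1.33) in mature cells of the library labelled HHcy. The ratio in B cell-like cells was thus above that of neutrophil-like cells as a whole in each library, but not in them alone. The reason was not tested.

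Classical monocyte-like cells departed in the other direction. They held 0.829 (0.584 to 1.17), 0.418 (0.344 to 0.504) and 0.817 (0.627 to 1.06) S100a9 UMIs per S100a8 UMI, below the neutrophil-like ratio beyond counting error in the libraries labelled HHcy and WD. In the library labelled HHcy, 10 of 140 such cells held 10 or more S100a8 UMIs and 55.9% of the S100a8 of the subset, and 0 of them held 10 or more S100a9 UMIs. The S100a8 level of the subset was 65.4, 215 and 74.2 CPM and its S100a9 level 54.2, 89.9 and 60.6 CPM. As a share of the neutrophil-like level, S100a8 there was 0.0702%, 0.2296% and 0.0927%, beside marker medians of 0.128%, 0.188% and 0.238%, so the library labelled HHcy was above its median there. Granulocyte progenitor-like cells, which reached 20 cells in Ctrl and WD only, also had low ratios of 0.306 (0.159 to 0.555) and 0.570 (0.386 to 0.832). Non-classical monocyte-like cells did not share this ratio, with 4 of 325 cells of the library labelled HHcy holding 48.7% of their S100a8 and 48.9% of their S100a9.

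The higher S100a8 of conventional dendritic-like cells rested on a few cells. In them, 2, 3 and 3 cells with 10 or more UMIs held 77.9%, 91.1% and 78.7% of the S100a8 of the class, with up to 1697 UMIs in a cell of the library labelled HHcy. Most of it lay in mature dendritic-like cells, at 509, 4097 and 399 CPM, against 16.8, 48.6 and 63.8 CPM in cDC2-like cells. As a share of the neutrophil-like level it was 0.546%, 4.37% and 0.498% in mature dendritic-like cells, beside marker medians of 0.278%, 4.98% and 0.4198%. cDC1-like cells held S100a8 at 29.9, 359.7 and 23.1 CPM. In the library labelled HHcy that was 0.384% of the neutrophil-like level beside a marker median of 0.262%, and 1 of 83 cells held 395 of the 460 UMIs. The neutrophil markers summed to 258, 480.2 and 316 CPM in conventional dendritic-like cells, the highest of the 4 other large classes, with at most 1 of 16 at 0. The markers were uneven there. The highest single marker stood at 16.55%, 12.22% and 21.03% of its neutrophil-like level, beside marker medians of 0.108%, 0.689% and 0.145%. The sum therefore cannot show how much neutrophil RNA the class held. The doublet limits counted no dendritic markers, and whether those few cells hold a neutrophil in the same droplet was not tested.

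**Figure D2:**
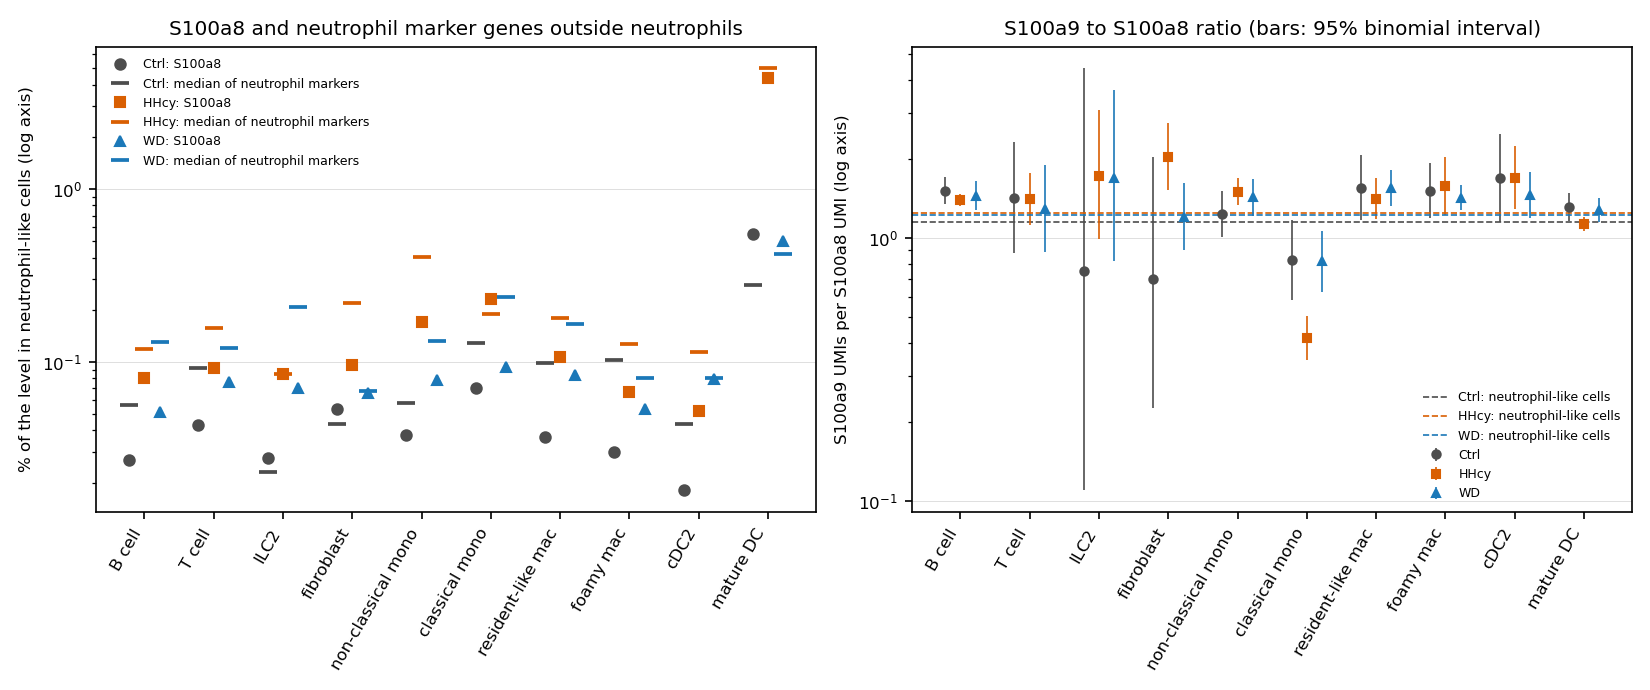
Left, S100a8 in 10 classes and subsets as a percentage of its level in neutrophil-like cells of the same library (symbols), with the median of the neutrophil markers (dashes), on a log axis. Right, S100a9 UMIs per S100a8 UMI with 95% binomial intervals, with the neutrophil-like ratios as dashed lines; classical monocyte-like cells lie below the lines at 0.829, 0.418 and 0.817, and B cell-like cells above.

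Within neutrophil-like cells, the calprotectin genes and Anxa1 marked immature cells. S100a8 stood at 147826, 160562 and 129236 CPM in immature neutrophil-like cells (55, 69 and 38 cells) and at 63196, 77118 and 63834 CPM in mature ones (93, 316 and 200 cells), a difference of 2.02-fold to 2.34-fold. S100a9 stood at 170530, 185054 and 166277 against 76473, 101621 and 77586 CPM. Anxa1 stood at 1974, 2514 and 1926 against 424, 604 and 549 CPM, 3.51-fold to 4.66-fold higher. S100a11 went the other way in CPM, at 4301, 4712 and 4318 against 5438, 5934 and 6138 CPM. These 4 of 8 members had library ranges that did not overlap between the subsets, beside 45.6% of all genes with at least 50 UMIs, so the count is near the background. S100a6 (5007, 9284 and 5323 against 6582, 7354 and 7233 CPM) and Anxa2 (375, 646 and 475 against 594, 902 and 822 CPM) overlapped. S100a8 and S100a9 took more of the UMIs in immature cells, which lowers the CPM of every other gene there. Whether S100a11 stays apart with that pair left out of the totals was not tested.

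Smaller groups placed in the neutrophil-like class differed from its main subsets in S100a6 and S100a4. The 25 cycling neutrophil-like cells of Ctrl held S100a6 at 436 CPM and S100a11 at 1383 CPM but S100a8 at 144572 and Anxa1 at 2019.6 CPM. An unnamed group of 25 Ctrl cells and 27 cells of the library labelled HHcy, led by the monocyte genes Ms4a6c and Ace, held S100a4 at 519.7 and 806 CPM and S100a8 at 20699 and 36825 CPM. In immature and mature neutrophil-like cells S100a4 lay between 12.5 and 50.9 CPM. The group that carried monocyte genes held 118 of the 145 S100a4 UMIs of the class in Ctrl and 230 of 287 in the library labelled HHcy. The S100a4 level of the class in these libraries thus rested mostly on that group. Whether its barcodes hold a neutrophil and a monocyte together was not tested.

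Cell by cell, after thinning to 1000 UMIs, S100a8 and S100a9 rose and fell together in neutrophil-like cells, with r = 0.932, 0.911 and 0.925 over 191, 414 and 249 cells. In B cell-like cells, r for the pair lay between 0.002 and 0.026. S100a4 and S100a6 had r = 0.521, 0.569 and 0.520 in macrophage/monocyte-like cells and 0.419, 0.4003 and 0.448 in B cell-like cells. Within naive follicular B-like cells r for that pair lay between -0.04 and 0.06, and within B1-like cells between 0.25 and 0.28. After thinning, few B cell-like cells held an S100a8 UMI and few naive follicular B-like cells an S100a4 UMI. An r near 0 there therefore cannot show whether the genes of a pair vary together, nor be compared with the other classes or subsets. Cells of a library share its depth and its subset mix, so these are descriptions.

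Among monocytes, classical cells, which enter tissue, held more of 6 members than non-classical cells, which patrol vessels. S100a4 stood at 2833, 2932 and 3018 against 1366, 1453 and 1436 CPM, 2.02-fold to 2.10-fold higher. S100a6 stood at 3052, 2809 and 2926 against 978, 990.1 and 893 CPM. S100a10 had the widest gap, at 837, 988 and 927 against 105, 121 and 156 CPM, 5.95-fold to 8.15-fold. S100a11, Anxa1 and Anxa2 were 2.66-fold to 3.53-fold, 3.68-fold to 4.56-fold and 3.01-fold to 3.30-fold higher. In all, 6 of 8 members were apart and higher in classical cells, beside 38.2% of all genes apart in either direction.

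Foamy macrophage-like cells, named from markers such as Gpnmb and Trem2, held more of 5 members than resident-like macrophages. The name pools a group of 1062 cells, with Trem2 but not Gpnmb among its leading genes, and another of 410 cells led by Gpnmb. S100a11 stood at 519, 311 and 414 against 155, 140.3 and 148 CPM, Anxa1 at 349, 287 and 275 against 85.7, 109 and 80.6 CPM, and Anxa2 at 482, 340.3 and 426 against 165, 149 and 176 CPM. S100a4 (1071, 896 and 1089 against 588, 550.1 and 424 CPM) and S100a6 (1514, 1152 and 1279 against 772, 708 and 632 CPM) were also apart. S100a10 overlapped, with a mean log2 ratio of 0.04 ± 0.41. These 5 of 8 stand beside 53.8% of all genes, a share near the background. An unnamed macrophage group led by Retnla and Lyz1 had S100a10 at 1563, 2422 and 2017 CPM and Anxa2 at 869, 1414 and 1092 CPM, above every named macrophage and monocyte subset.

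Conventional dendritic subsets were split by S100a4. cDC1-like cells, which cross-present antigen, held it at 167, 240.1 and 123 CPM, cDC2-like cells at 2180, 2244 and 3748 CPM and mature dendritic-like cells at 3031, 2680.3 and 3707 CPM. cDC2-like cells were 9.35-fold to 30.4-fold above cDC1-like cells. S100a6 followed at 559, 576 and 294 against 2137, 1831 and 2596 CPM, while Anxa1 and S100a11 were higher in cDC1-like cells. In all 4 of 8 members were apart between cDC2-like and cDC1-like cells, beside 37.1% of all genes. Mature dendritic-like cells had more Anxa2 than cDC2-like cells (1063, 859.8 and 1222 against 429, 455 and 611 CPM) and less S100a10, S100a6 and Anxa1. With S100a8 and S100a9, 6 of 8 members were apart there, beside 48.4% of all genes. The levels of that pair rested on a few cells of the class, as given above. Without the pair, the members apart were S100a6, S100a10, Anxa1 and Anxa2.

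**Figure D3:**
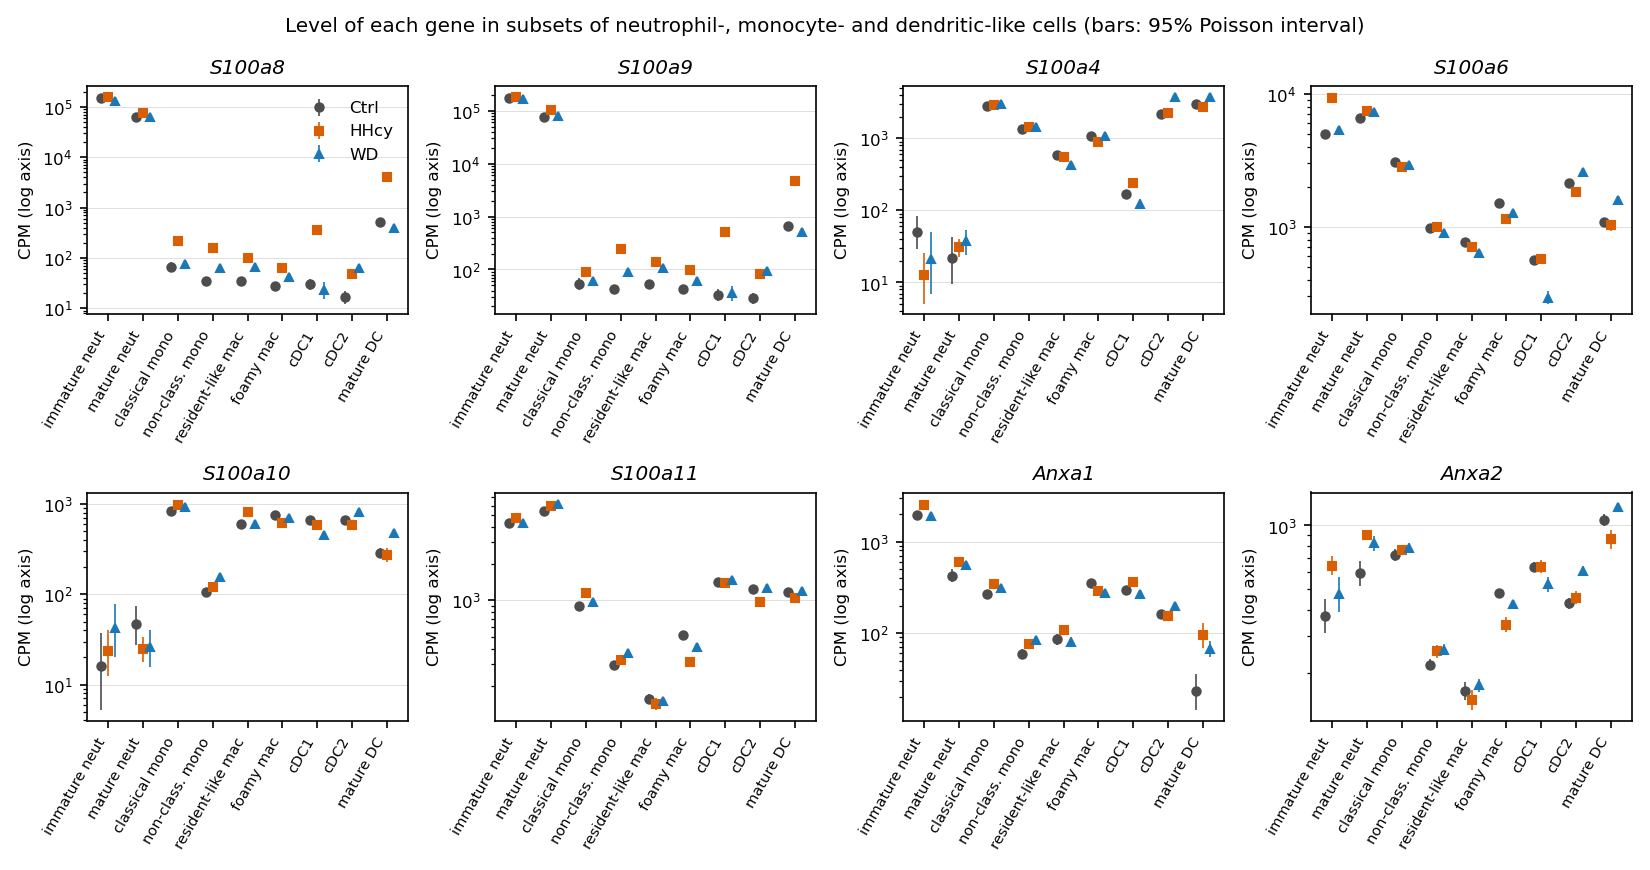
CPM (log axis) of the 8 genes in 9 subsets of neutrophil-like, monocyte-like, macrophage-like and dendritic-like cells, 1 point per library with 95% Poisson intervals. S100a4 spans from 12.5 CPM in immature neutrophil-like cells to 3748 in cDC2-like cells, and S100a10 is lower in non-classical than in classical monocyte-like cells in each library.

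In B cells the members split by subset. B1-like cells, which are self-renewing cells that make natural antibody, held S100a6 at 3196, 2471 and 2995 CPM, and naive follicular B-like cells held it at 106, 64.7 and 88.0 CPM. That is 30.2-fold to 38.2-fold, a mean log2 ratio of 5.09 ± 0.17. S100a4 stood at 468, 412 and 530.2 against 20.9, 17.7 and 27.6 CPM, 19.2-fold to 23.2-fold. Anxa2 stood at 130.0, 113 and 149.9 against 10.5, 8.43 and 15.2 CPM, 9.86-fold to 13.3-fold. S100a10 and S100a11 were 2.44-fold to 3.39-fold and 2.12-fold to 2.46-fold higher. Anxa1 (6.78, 6.20 and 9.38 against 7.63, 8.22 and 10.3 CPM), S100a8 and S100a9 overlapped. So 5 of 8 members were apart, all higher in B1-like cells, beside 49.5% of all genes in either direction. B1-like cells were deeper, with a median of 10638, 11326.5 and 10924 UMIs against 5338, 6046 and 5142.

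Another B group, led by Sox4 and Vpreb3 and left unnamed, resembled the follicular cells, with S100a4 at 19.2, 20.03 and 34.5 CPM and S100a6 at 36.3, 45.1 and 58.3 CPM. T cells had a like split. Regulatory T-like cells (22, 24 and 23 cells) held S100a4 at 1266, 2235 and 2231 CPM against 65.3, 116 and 54.0 CPM in naive T-like cells (25, 71 and 20 cells), and S100a10 at 1139, 1891 and 2144 against 294, 307 and 539.8 CPM. Together with S100a6 and S100a11, 4 of 7 members with enough UMIs were apart, all higher in regulatory T-like cells, beside 30.6% of all genes. T cells named by gamma-delta or IL-17 markers, with 21 cells each in the libraries labelled HHcy and WD, held S100a4 at 3860.4 and 3942 CPM and S100a6 at 3901 and 3999 CPM, the highest of any T subset.

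**Figure D4:**
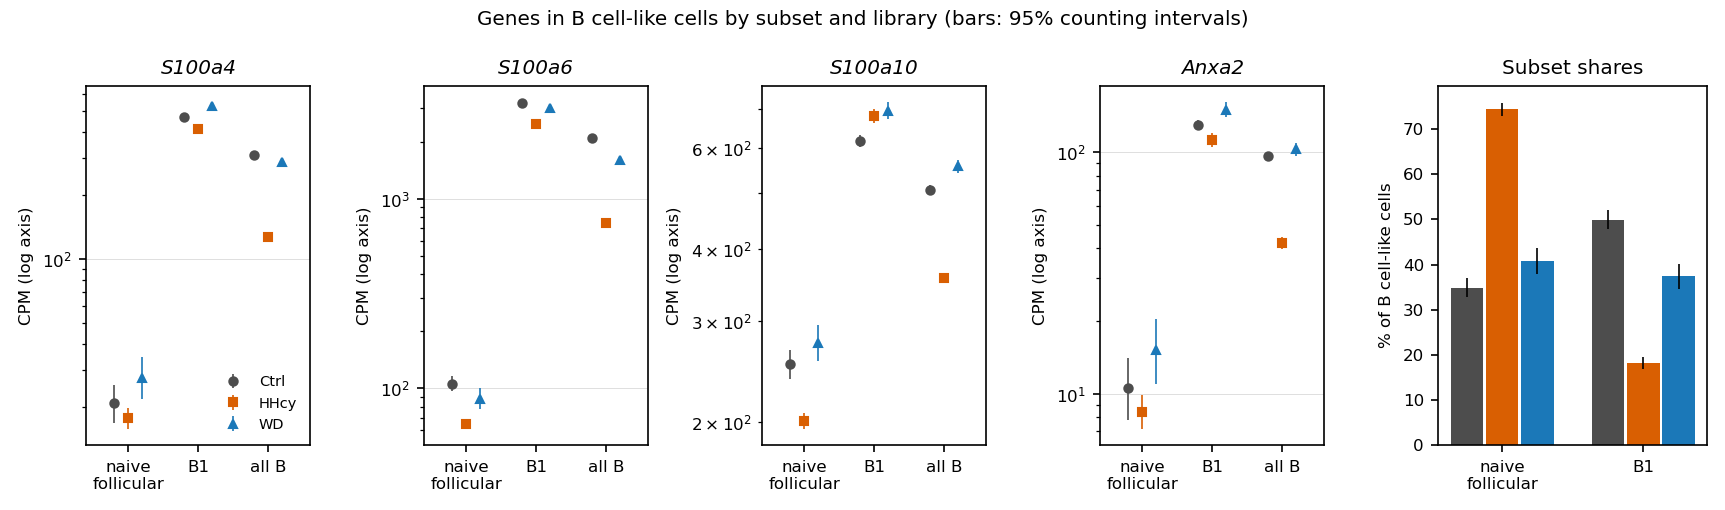
CPM (log axis) of S100a4, S100a6, S100a10 and Anxa2 in naive follicular B-like, B1-like and all B cell-like cells, 1 point per library with 95% Poisson intervals, and the share of each subset with 95% Clopper-Pearson intervals. The library labelled HHcy lies further below the others over all B cell-like cells than within either subset, and its B1-like share is 18.1% against 49.9% in Ctrl and 37.4% in WD.

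Against Ctrl, the library labelled HHcy had lower S100a6, S100a4 and Anxa2 and higher S100a8 and S100a9 in B cell-like cells. A gene counted as past the fold at 1.5-fold or more with at least 50 UMIs over both libraries. Past it were 5 of 8 members, beside 11.6% of all genes tested. S100a6 was lower, at 742 against 2102 CPM (log2 ratio -1.50, interval -1.53 to -1.48), as were S100a4 at 127 against 311 CPM (-1.29, -1.34 to -1.23) and Anxa2 at 42.0 against 96.1 CPM (-1.19, -1.30 to -1.09). S100a8 (1.59) and S100a9 (1.47) were higher. The median of the 8 members was -0.46, and that of all genes -0.02.

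The subset mix moved with the 3 lower genes. Naive follicular B-like cells made up 34.9% of B cell-like cells in Ctrl and 74.4% in the library labelled HHcy, and B1-like cells 49.9% and 18.1%. With the class level rebuilt from its subsets at the UMI shares they had in Ctrl, an alternative chosen after seeing the data, the log2 ratios were -0.37 for S100a6, -0.26 for S100a4 and -0.16 for Anxa2. The mean of the subset log2 ratios, weighted by the cell shares of Ctrl, was -0.31, -0.22 and -0.17. Within B1-like cells they were -0.37, -0.19 and -0.21, and within naive follicular B-like cells -0.71, -0.24 and -0.32. S100a8 and S100a9 stayed past the fold, at 1.42 and 1.30 in the rebuilt level. Past the fold were 2 of 8 members in B1-like cells, beside 5.2% of all genes, and 3 of 8 in naive follicular B-like cells, beside 9.23%. S100a6 was past it within naive follicular B-like cells, at 64.7 against 106 CPM, and not in B1-like cells or in the rebuilt level.

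S100a8 and S100a9 were higher in the library labelled HHcy in each of the 4 large classes other than neutrophils. The log2 ratios were 1.77 and 1.67 in macrophage/monocyte-like cells, 2.59 and 2.45 in conventional dendritic-like cells and 1.09 and 1.08 in T cell-like cells. In neutrophil-like cells they were 0.01 and 0.12. The level over all barcodes was also higher there, at 4526 against 2091 CPM for S100a8, and so was the doublet share; their part in these ratios was not tested. The S100a8 ratio moved with the handling of doublets, to 1.44 in conventional dendritic-like cells with lower doublet limits and to 3.28 in macrophage/monocyte-like cells with doublets kept. In macrophage/monocyte-like and conventional dendritic-like cells these 2 were the members past the fold, 2 of 8 each, beside 7.02% and 10.3% of all genes. In T cell-like cells 3 of 8 were past it, beside 13.9%: the third was Anxa1, at 17.2 against 33.8 CPM (-0.98, -1.81 to -0.14), which turned to 0.17 with doublets kept. It was -0.64 in the level rebuilt at Ctrl subset shares, which covered 89.3% of the Ctrl cells of the class, and 0.027 as the weighted mean of subset ratios.

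In neutrophil-like cells of the library labelled HHcy, 2 of 8 members were past the fold, beside 28.6% of all genes. Anxa2 stood at 769 against 419 CPM (0.88, 0.73 to 1.02) and S100a6 at 7029 against 4243 CPM (0.73, 0.68 to 0.77). Mature cells made up 47.0% of the class in Ctrl and 75.1% in the library labelled HHcy, and cycling cells 12.6% and 2.14%. In the level rebuilt at Ctrl subset shares, which covered 87.4% of the Ctrl cells, the log2 ratios were 0.54 and 0.35, and S100a10 was the gene past the fold at 0.69. As weighted means of subset ratios they were 0.54 and 0.13, and S100a10 was at 0.05. With TMM factors, which raised every log2 ratio of the class by 0.34, 4 of 8 were past it. Within mature neutrophil-like cells, Anxa2 stood at 902 against 594 CPM (0.60, 0.39 to 0.81). Past the fold were 2 of 8 members there, 1 higher (Anxa2) and 1 lower (-0.92), beside 24.9% of all genes. In immature neutrophil-like cells 2 of 6 members with enough UMIs were past it, both higher, beside 27.2%.

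The WD library had fewer members past the fold. In neutrophil-like cells it was 1 of 8, beside 19.4% of all genes: Anxa2 at 663 against 419 CPM (0.66, 0.49 to 0.83). It was 0.39 in the level rebuilt at Ctrl subset shares, which covered 74.7% of the Ctrl cells, and 0.36 as the weighted mean. TMM factors raised every ratio there by 0.19 and put 4 of 8 past it. Within mature neutrophil-like cells 0 of 6 members with enough UMIs were past the fold, beside 12%. In macrophage/monocyte-like cells it was 1 of 8, beside 8.6%: S100a9 at 73.5 against 45.2 CPM (0.70, 0.58 to 0.83). It fell short of the fold under 3 alternatives: 0.53 with at most 20% mitochondrial UMIs, 0.43 with doublets kept and 0.54 with lowered doublet limits, each leaving 0 of 8. In the level rebuilt at Ctrl subset shares S100a9 was at 0.82, and S100a8 was also past the fold at 0.61. The other 6 members, leaving out S100a8 at 0.50, had log2 ratios from -0.08 to 0.29 in that class, although foamy macrophage-like cells made up 39.4% of it against 17.9% in Ctrl. In B cell-like cells 2 of 8 were past the fold, beside 5.39%, which were S100a8 (0.71) and S100a9 (0.65). Past it were 2 of 8 in B1-like cells, beside 4.88%, and 0 of 8 in naive follicular B-like cells, beside 5.34%.

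In conventional dendritic-like cells of WD, 1 of 8 members was past the fold, beside 9.82% of all genes. S100a4 stood at 2699 against 1488 CPM (0.86, 0.82 to 0.89). Mature dendritic-like cells made up 29.0% of the class against 17.7% in Ctrl and cDC1-like cells 17.0% against 29.5%. In the level rebuilt at Ctrl subset shares the log2 ratio was 0.64, past the fold, and as the weighted mean of subset ratios it was 0.34. Within cDC2-like cells it was 0.78 (0.73 to 0.83), at 3748 against 2180 CPM. By the levels given above, S100a4 was also higher in mature dendritic-like cells of WD but lower in cDC1-like cells. Past the fold were 3 of 8 members in cDC2-like cells, all higher, beside 10.3% of all genes. In mature dendritic-like cells there were 2 of 8, both higher, beside 19%. In cDC1-like cells there was 1 of 8, beside 12.2%, which was S100a6, lower at -0.93. In T cell-like cells 3 of 7 members with enough UMIs were past the fold, beside 11% of all genes: S100a10 at 1620 against 1052 CPM (0.62, 0.50 to 0.75), Anxa2 at 292 against 191 CPM (0.61, 0.31 to 0.92) and S100a8 (0.60, -0.07 to 1.29). In the rebuilt level S100a10 alone was past it, at 0.598. Both comparisons share the Ctrl library. The median log2 ratio of the members in neutrophil-like, macrophage/monocyte-like, conventional dendritic-like and T cell-like cells was 0.19, 0.13, -0.02 and 0.16 in the library labelled HHcy, beside -0.21, -0.05, 0.08 and -0.06 for all genes. In WD it was 0.36, 0.20, 0.33 and 0.57, beside -0.09, -0.02, -0.00093 and 0.04, and in B cell-like cells of WD 0.13 beside 0.02. The medians of the members lay within the 1.5-fold limit in every class.

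**Figure D5:**
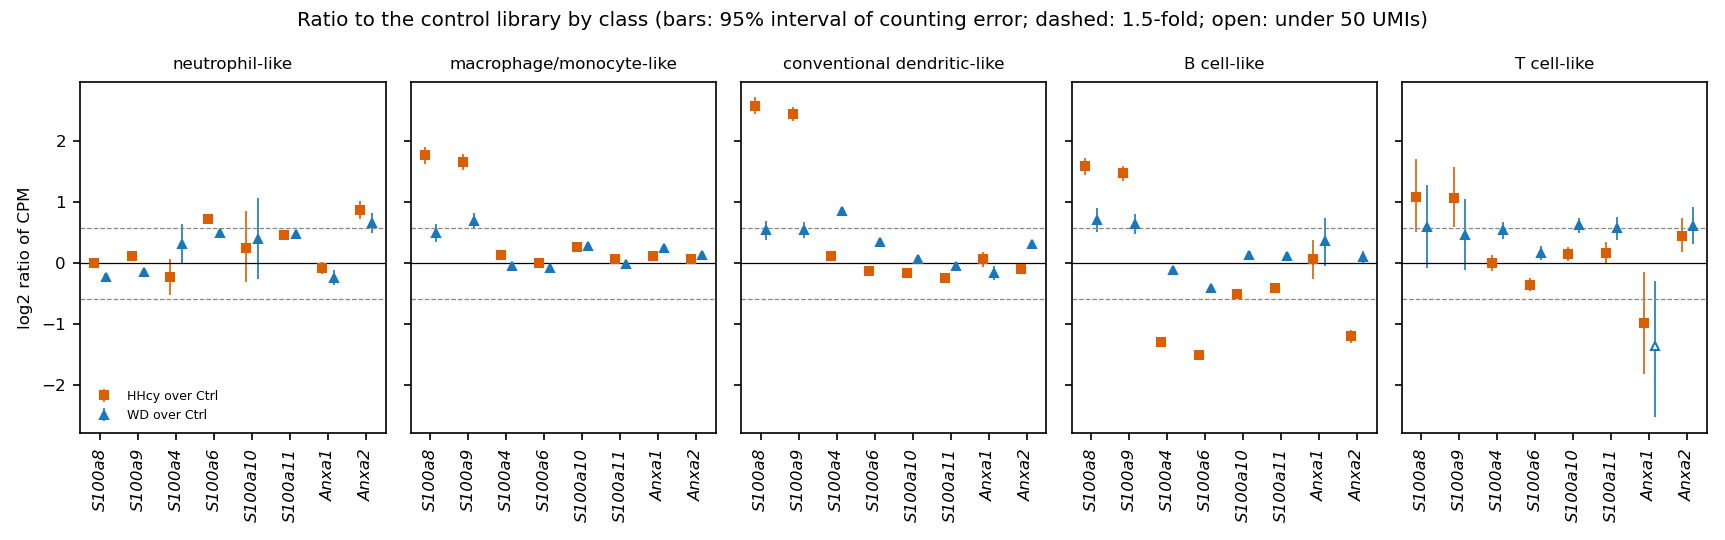
Log2 ratio of CPM to the Ctrl library for the 8 genes in 5 classes (bars, 95% intervals of counting error; dashed lines, 1.5-fold; open symbols, fewer than 50 UMIs). S100a8 and S100a9 of the library labelled HHcy lie at or above 1.08 in all classes but neutrophils, and S100a6, S100a4 and Anxa2 lie at -1.50, -1.29 and -1.19 in B cell-like cells.

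The other S100 and annexin genes and the known receptors and partners, a list of 31, were counted in the same way. In the library labelled HHcy, those past the fold were 3 of 14 with enough UMIs in neutrophil-like cells, 1 of 17 in macrophage/monocyte-like, 2 of 15 in conventional dendritic-like, 4 of 15 in B cell-like and 2 of 9 in T cell-like cells, beside 28.6%, 7.02%, 10.3%, 11.6% and 13.9% of all genes. In WD they were 4 of 12, 1 of 17, 3 of 15, 1 of 15 and 0 of 8, beside 19.4%, 8.6%, 9.82%, 5.39% and 11%. Several of these shares were near or under that of all genes. Their median log2 ratio lay between -0.27 (B cell-like cells of the library labelled HHcy, beside -0.02 for all genes) and 0.19 (T cell-like cells of WD, beside 0.04). Ahnak, a large scaffold that binds S100a10 and annexin A2, was lower in B cell-like cells of the library labelled HHcy, at 269 against 733 CPM (-1.45), and lower in neutrophil-like cells (-1.28, and -0.72 in WD) and in T cell-like cells (-0.71). Ahnak is among the leading genes of 1 B1-like group. Within B1-like cells it stood at 819.0 against 1073.9 CPM (-0.39), within naive follicular B-like cells at 48.3 against 103 CPM (-1.09), and within mature neutrophil-like cells its log2 ratio was -1.26, and -0.33 in WD. Fpr1, a receptor of annexin A1, was higher in neutrophil-like cells, at 173, 342 and 298 CPM. Anxa5 was lower there, at 75.1, 41.8 and 48.7 CPM, and Tlr4 was past the fold in WD only, at 24.4 and 40.0 CPM in Ctrl and WD. Mature cells made up 47.0%, 75.1% and 76.3% of neutrophil-like cells. The part of this mix in the ratios of Fpr1, Anxa5 and Tlr4 was not tested.

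Beyond these, Plau, the urokinase gene, was lower in macrophage/monocyte-like cells of the library labelled HHcy, at 31.6 against 58.9 CPM. Plau and Plat, which encode plasminogen activators, were lower in its conventional dendritic-like cells (-1.27 and -1.82), and Plau (-1.02), S100a5 (-0.85) and S100a1 (-0.84) in its B cell-like cells, none of them above 10.4 CPM in Ctrl. Anxa7 was lower in its T cell-like cells (-0.74). The subset mix of B cell-like cells moved, as given above, and its part in the B cell-like ratios here was not tested. In WD, Anxa3 was higher in macrophage/monocyte-like cells, at 111 against 72.3 CPM, and in B cell-like cells (0.62, -0.21 to 1.45). Anxa4 was higher in conventional dendritic-like cells, at 107 against 66.6 CPM, and Plau (-0.66) and Tlr4 (-0.61, -1.50 to 0.25) were lower there.

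Levels of the most abundant listed genes differed between classes. Ahnak had its highest mean in ILC2-like cells (1097 ± 130.1 CPM) and its lowest in neutrophil-like cells (86.5 ± 38.6 CPM), where S100a10 was also lowest. Plaur, the urokinase receptor, was highest in neutrophil-like cells (1074 ± 170.1 CPM), Myh9 in T cell-like cells (482 ± 50.2 CPM), and Anxa5, Bsg and S100a13 in fibroblast-like cells (621 ± 84.4, 521 ± 24.9 and 343 ± 43.0 CPM). The annexin A1 receptors Fpr2 (328 ± 6.83 CPM) and Fpr1 (271 ± 87.9 CPM) were highest in neutrophil-like cells, as was Anxa1. Of the calprotectin receptors, Tlr4 had its highest mean in neutrophil-like cells (29.3 ± 9.26 CPM) and Ager had a mean of at most 1.75 CPM in any class. For Ahnak, Anxa5, S100a13 and Tlr4, the library ranges of the highest class and the next overlapped.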

How the data were processed

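Aortic CD45+ cells of 3 libraries were measured, 1 per group, with the Chromium 3' version 3 kit, per the labels. The authors deposited raw UMI counts per gene and barcode, not normalized. The submitters' processing notes name Cell Ranger 2.2.0 and mm10, while the matrix headers name cellranger 4.0.0; the annotation is not given in the sources used here. The matrices held 66789257, 105180370 and 93164076 UMIs, and 0 columns came from outside the series.

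Barcodes with fewer than 200 genes or over 10% mitochondrial UMIs were left out. Doublets were barcodes that reached the limit of 2 or more lineages: 6 of 12 B, 6 of 21 T or NK, 8 of 16 myeloid, 7 of 16 neutrophil or 6 of 23 stromal markers detected. Doublets within a lineage stay in. The limits had no dendritic list, so a barcode holding a dendritic cell and a neutrophil could pass. Cells of all libraries were clustered together without batch correction (2000 variable genes, 30 components, 20 neighbours, Leiden resolution 1; leidenalg 0.10.2, scikit-learn 1.9.0, Python 3.11.15), leaving out S100, annexin, mitochondrial, ribosomal, haemoglobin, antigen receptor and sex-linked genes. Classes were clustered again at resolution 0.5. A name needed at least 3 markers, and more than the rest of its list, in 25% of cells and the highest marker score of at least 1 (0.5 for subsets). Doublet and naming limits were chosen with the cells in view.

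UMIs were summed per class and library to CPM. Levels needed 20 cells, and ratios 50 cells in each library and 50 UMIs over both; a gene was past the fold at 1.5-fold. Intervals are exact Poisson (levels), Clopper-Pearson (shares) and conditional binomial (ratios). With 1 library per group, p-values were not computed. The ratio code was tested on simulated data. All 8 genes were named; of 31 listed relatives, those past the fold (up to 4 per class) and the 6 highest. The genes, lists and comparisons were chosen with earlier results of these data known. Alternatives covered mitochondrial limit, doublets, resolution, depth, cell weights, TMM factors, totals, subset mix (the mean of subset log2 ratios with Ctrl cell shares as weights, and a class level rebuilt with Ctrl UMI shares) and count filter.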

Additional observations from a re-analysis of the deposited data

Results flagged for a closer look

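S100a6 and Anxa2 moved in opposite directions in neutrophil-like and B cell-like cells of the library labelled HHcy against Ctrl. The log2 ratio of S100a6 was 0.73 in neutrophil-like cells and -1.50 in B cell-like cells, a gap of 2.23. That of Anxa2 was 0.88 and -1.19, a gap of 2.07. Each class is 1 library per group, so the difference was not tested. The subset mix moved in both classes. With the class level rebuilt at the subset shares of Ctrl, S100a6 had log2 ratios of 0.35 and -0.37, and Anxa2 of 0.54 and -0.16. As means of the subset log2 ratios weighted by the cell shares of Ctrl, they were 0.13 and -0.31, and 0.54 and -0.17.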

How the results depend on the processing

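No paired analysis was possible because each group is a single library. Of 144 recomputed counts and shares, 116 stayed within 1.5 times or 1 SD of the reported value. Of 857 single log2 ratios, 566 stayed within the counting interval of the reported ratio. The counts of genes past the fold that moved were as follows. As the mean of subset log2 ratios weighted by Ctrl shares there were 0 in place of 2 (library labelled HHcy) and 0 in place of 1 (WD) in neutrophil-like cells, 2 in place of 5 and 1 in place of 2 in B cell-like cells, 2 in place of 1 in macrophage/monocyte-like and in conventional dendritic-like cells of WD, and 1 in place of 3 in T cell-like cells of WD. With the class level rebuilt at the UMI shares of the Ctrl subsets, chosen after seeing the data, there were 1 and 0 in neutrophil-like cells (library labelled HHcy, WD), 2 in B cell-like cells of the library labelled HHcy, and 2 in macrophage/monocyte-like and 1 in T cell-like cells of WD. With cells thinned to 1000 UMIs there were 1 in place of 2 in neutrophil-like and 1 in place of 3 in T cell-like cells of the library labelled HHcy, and 2, 3 and 1 in macrophage/monocyte-like, conventional dendritic-like and T cell-like cells of WD. The mean of per-cell CPM gave 1 in neutrophil-like cells of the library labelled HHcy and 3 in conventional dendritic-like cells of WD. TMM factors gave 4 in neutrophil-like cells in both comparisons, where they shifted all log2 ratios by 0.34 (library labelled HHcy) and 0.19 (WD); in T cell-like cells of the library labelled HHcy the shift was 0.14 and the count 4, and elsewhere it was under 0.1. With doublets kept, WD gave 2 in neutrophil-like, 0 in macrophage/monocyte-like and 1 in T cell-like cells. With doublet limits lowered by 2 markers, chosen after seeing the data, WD gave 0 in macrophage/monocyte-like and 1 in T cell-like cells, and at most 20% mitochondrial UMIs gave 0 in macrophage/monocyte-like cells. The cause was not tested.

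Anxa1 in T cell-like cells of the library labelled HHcy reversed to 0.17 with doublets kept and to 0.027 as the weighted mean of subset ratios. S100a8 in conventional dendritic-like cells of that library was 1.44 in place of 2.59 with lowered doublet limits, and in macrophage/monocyte-like cells it was 3.28 with doublets kept and 1.13 at 20% mitochondrial UMIs. Of the 8 genes, 7 or 8 kept their highest class; Anxa2 moved to neutrophil-like cells under 5 alternatives. With TMM factors 5 of 8 kept their lowest class and with lowered doublet limits 6 of 8, S100a8 and S100a9 then being lowest in conventional dendritic-like cells. S100a8 in B cell-like cells was 0.0530% of the neutrophil-like level as a mean, and 0.0393% to 0.0728% over the alternatives. Small classes limit depth most: T subsets held 20 to 71 cells.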
